A study of Mus musculus with 4 samples.

Results

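The genes that make melanin and build the melanosome were examined in 4 cultured mouse melanoma lines. Members were chosen by name: Tyr, Tyrp1, Dct, Pmel, Mlana, Gpr143, Slc45a2, Oca2, Slc24a5 and Trpm1, under the current or an older symbol, with every probe of the array. A probe was found for 8 of the 10 genes, out of 15694 different gene symbols in the table, and each of the 8 had 1 probe. In the file Pmel is listed as Si, Slc45a2 as Matp, Oca2 as p and Slc24a5 as F630045L20Rik. The signals of Mlana and Trpm1 were not analysed here. A probe listed as Aim1 was left out, because the file names it absent in melanoma 1, a gene other than Slc45a2.

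B16 is a pigmented melanoma line of C57BL6 mice, and the parental cells here were its B16F1 subline, which had no round of injection in this study. B16-RI was grown out of lymph node metastases after 1 round of injection of the parental cells into the back skin of C57BL6 mice. B16-RII and B16-RIIL came from lymph node and from lung metastases after B16-RI had been injected for round 2 (the study also writes B16-R2 and B16-R2L). All 4 lines were kept in the same medium with fetal bovine serum before RNA was taken, and the submitters state that RNA of different passage numbers was pooled for each line. Labelled cRNA was hybridized to Applied Biosystems mouse arrays, which give a chemiluminescence signal per probe. The study describes duplicate cultures of each line, and the table also holds columns of second arrays, but the labels list 1 sample per line and the second arrays match none of them. Those columns were not used here. The values below are thus of 1 array per line, with no replicate check and no p-value.

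Melanin is made inside melanosomes, which are organelles related to the lysosome. Tyrosinase (Tyr) catalyses the first and rate-limiting steps from tyrosine, dopachrome tautomerase (Dct) and the tyrosinase-related protein Tyrp1 act on later intermediates, and the protein of Pmel forms the fibrils on which the pigment is laid down. Oca2, Slc45a2 and Slc24a5 are transport proteins of pigment cells that influence the ions and pH within the organelle, and Gpr143 is a melanosomal G protein-coupled receptor. Loss of Tyr, Tyrp1, Oca2 or Slc45a2 causes forms of oculocutaneous albinism, and Gpr143 is the gene of ocular albinism. The transcription factor Mitf acts on promoters of several of these genes through the letters CATGTG, often within a longer element called the M-box.

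The RefSeq promoter table held 6 of the 10 genes, Tyr, Tyrp1, Dct, Oca2, Slc24a5 and Trpm1. The table gives them 7 windows, 2 of which are of Trpm1. In the 250 bases before the start site, 6 of the 7 windows held CATGTG on at least 1 strand, all but 1 of those of Trpm1, as did 12.3% of the 32851 promoter windows of the table. The longest run around the core that the windows of Tyr and Tyrp1 share was the M-box, AGTCATGTGCT, which 0.0213% of all windows held. The run that both share with Dct was GTCATGTGCT, a part of the M-box, and 0.155% of all windows held it. These runs were read from the 3 genes themselves, so their presence there is no finding. Both strands were searched, and a match is a description of the letters, with no binding measured. Stretches of 30 bases are shown for 5 measured genes because 3 of them share the longer run and 2, Oca2 and Slc24a5, hold the core only. Capitals mark CATGTG, and each line is written 5' to 3' on the strand where the core reads this way.
Tyr: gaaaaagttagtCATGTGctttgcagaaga
Tyrp1: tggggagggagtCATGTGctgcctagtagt
Dct: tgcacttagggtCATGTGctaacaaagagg
Oca2: gaaaattccagcCATGTGtagcaagctcaa
Slc24a5: cttatgctgaatCATGTGagcagtctcctt
In build GRCm38.p6 these lie at chr7:87493516-87493545 on the minus strand for Tyr, chr4:80834155-80834184 on the plus strand for Tyrp1 and chr14:118052379-118052408 on the minus strand for Dct. They lie at chr7:56239561-56239590 on the minus strand for Oca2 and chr2:125068102-125068131 on the minus strand for Slc24a5. Counted along the gene, the core begins 21 bases before the RefSeq start site in Tyr, 46 in Tyrp1, 150 in Dct, 186 in Oca2 and 13 in Slc24a5. The Dct window holds a further CATGTG, which begins 232 bases before the start site.

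Values are given as the deposited normalized signal, in arbitrary units, and differences as log2 of the ratio of 2 lines for the same probe. A probe counted as detected when its S/N, the signal-to-noise ratio, reached 3 and its flag did not exceed 5000. Between 13872 and 14855 of the 33012 probes were detected per array. On all 4 arrays 11604 probes were detected. The deposited values divide the raw signal by 1 of 2 constants per array, for 2 sets of probes. Over the probes detected on all arrays, the median log2 difference from B16 in these values was 0.21 in B16-RI, 0.41 in B16-RII and 0.22 in B16-RIIL. This shift was 0.39, 0.41 and 0.46 in the probe set that holds Tyrp1, Dct, Pmel and Oca2, and 0.07, 0.42 and -0.01 in the set of Tyr, Gpr143, Slc45a2 and Slc24a5. The differences of the 8 genes from B16 were therefore computed under 4 other scalings of the arrays as well, as were the list calls, the lineage markers and the neighbours of Oca2, while the other values below are given in the deposited scaling. Because probes differ in brightness for the same amount of RNA, no gene's level was ranked against another gene's.

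All 8 genes were detected on all 4 arrays, with an S/N between 10.29 for Oca2 on B16-RI and 117.86 for Tyrp1 on B16-RII. Oca2 had the widest range, with its highest line 2.92-fold above its lowest. The other 7 genes ranged by 1.28-fold to 1.63-fold over the lines, and the median over probes detected on all arrays was 1.60-fold. In a culture, fewer pigmented cells and less RNA per cell cannot be told apart.

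**Figure D1:**
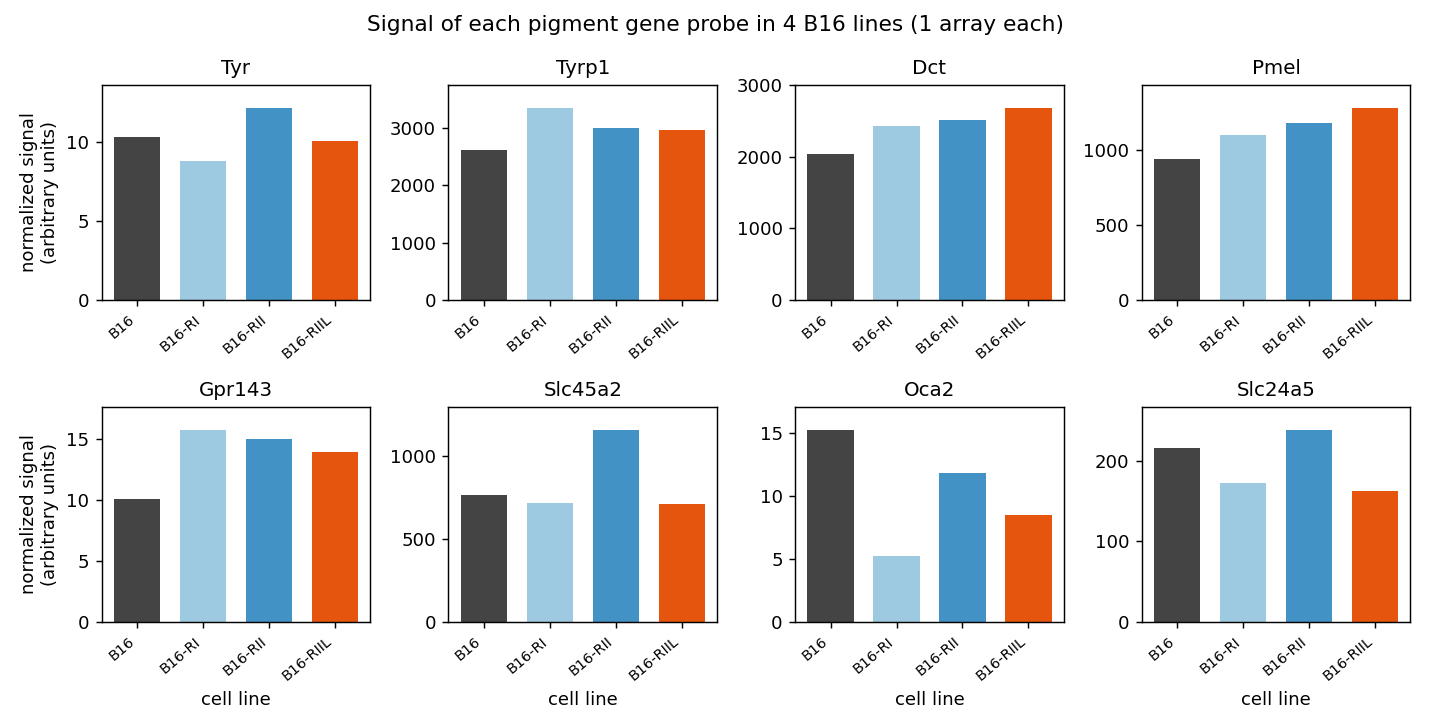
Deposited normalized signal (vertical axis, arbitrary units, from 0 in each panel) of the probe of 8 pigment genes on the arrays of B16, B16-RI, B16-RII and B16-RIIL, 1 bar per array and a scale of its own per gene. Oca2 is at 15.25 on B16 and 5.23 on B16-RI, while Tyrp1 stays between 2627.99 and 3354.84, and heights in different panels are not comparable.

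Of the melanin enzymes, the tyrosinase probe (mCG18425.2) read 10.33 on the B16 array, 8.80 on that of B16-RI, 12.16 on B16-RII and 10.06 on B16-RIIL. B16-RI was lowest and B16-RII highest, a span of 1.38-fold. In B16-RI the difference from B16 was -0.23 log2 units and lay between -0.41 and -0.23 over the scalings, and in B16-RIIL it was -0.04, between -0.32 and -0.03. In B16-RII it was 0.24 with the deposited values and -0.33 after quantile normalization, so its direction depended on the scaling.

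Tyrp1 (mCG8929.1), which takes part in making brown-black eumelanin, was at 2627.99 on B16, 3354.84 on B16-RI, 2996.52 on B16-RII and 2965.78 on B16-RIIL. The passaged lines were 1.28-fold, 1.14-fold and 1.13-fold above B16, and in each of them the direction turned under another scaling, down to -0.05, -0.24 and -0.35 log2 units when the probe sets were centred separately. The probe is among the brightest of the array, with only 18 or 19 probes of higher raw signal on each array, and it carried a flag of 4 on the 3 passaged arrays and 0 on B16. Whether so bright a signal still follows the amount of RNA was not tested.

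Dct (mCG119095.1), the enzyme that converts dopachrome, was at 2041.22 on B16, 2425.05 on B16-RI, 2515.06 on B16-RII and 2684.43 on B16-RIIL. B16 was the lowest and B16-RIIL the highest, 1.32-fold apart. With each probe set centred, however, all 3 passaged lines lay below B16, by -0.15, -0.13 and -0.12 log2 units.

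Pmel (mCG18669.3), the fibril protein, gave 946.04 on B16, 1101.93 on B16-RI, 1184.83 on B16-RII and 1284.64 on B16-RIIL. Its 3 differences from B16, 0.22, 0.32 and 0.44 log2 units, were close to those of Dct, 0.25, 0.30 and 0.40. The root mean square distance between both patterns was 0.03 log2 units, the smallest of the 28 pairs of genes, and both probes belong to the same probe set. With the sets centred Pmel lay at -0.18, -0.10 and -0.08.

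Gpr143 (mCG14479.2), the melanosomal receptor, was at 10.09 on B16, 15.78 on B16-RI, 15.08 on B16-RII and 13.99 on B16-RIIL. All 3 passaged lines lay above B16, by 1.56-fold, 1.49-fold and 1.39-fold, and it was the only one of the 8 genes above B16 in each of them under every scaling run. The smallest differences over the scalings were 0.48 log2 units in B16-RI, 0.01 in B16-RII and 0.20 in B16-RIIL, so that in B16-RII the direction rests on a difference near 0. None of these differences reached 2-fold.

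Among the transport proteins, Oca2 (mCG118720.1), known in the mouse as pink-eyed dilution, was at 15.25 on B16, 5.23 on B16-RI, 11.84 on B16-RII and 8.51 on B16-RIIL. B16 was highest and B16-RI lowest. The S/N of the probe was 25.3, 10.29, 21.91 and 24.15 on these arrays, so it was detected on each. The raw signals were 5674.23, 1926.99, 6960.39 and 4179.09, and the raw signal of B16-RII was thus above that of B16 before scaling.

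Oca2 on B16-RI was 2.92-fold below B16, a difference of -1.54 log2 units, or -1.93 relative to the median of its own probe set. Over the scalings it lay between -1.94 and -1.54. Of the 11604 probes detected on all arrays, 43, or 0.371%, were at least as far below B16 on that array. The same count for Oca2 was 601 probes, or 5.18%, in B16-RII and 297, or 2.56%, in B16-RIIL. In B16-RIIL Oca2 was 1.79-fold below B16 with the deposited values, and 2.12-fold after quantile normalization, 2.04-fold with 75th percentile scaling and 2.57-fold with centred sets, which puts it past the 2-fold limit. In B16-RII it was 1.29-fold below B16, between -0.79 and -0.22 log2 units over the scalings. Between the passaged lines it was 2.26-fold higher in B16-RII than in B16-RI and 1.63-fold higher in B16-RIIL than in B16-RI.

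The 6 measured genes nearest to Oca2 in the RefSeq gene order that were detected on all arrays, 3 on each side and looked up after the Oca2 values were seen, lay between -0.87 and 0.70 log2 units from B16 in B16-RI. The lowest of them was Mkrn3, at 3.78 on B16, 2.07 on B16-RI, 2.70 on B16-RII and 1.94 on B16-RIIL. The difference of Oca2 in B16-RI was outside that range. In B16-RII the 6 genes lay between -0.49 and 0.60 and in B16-RIIL between -0.96 and 0.56. Oca2, at -0.37 and -0.84, was inside both ranges, but only through Mkrn3, a dim gene that set the lower end. The next lowest, Cyfip1, was at 0.10 in B16-RII and -0.24 in B16-RIIL, above Oca2 in both. Over the 5 scalings Oca2 was outside the range of these genes in B16-RI each time, and in B16-RII and B16-RIIL only after quantile normalization, at -0.62 against -0.55 and -1.08 against -1.04.

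Slc45a2 (mCG18322.2), a transporter whose loss dilutes coat colour, was at 763.35 on B16, 716.99 on B16-RI, 1158.79 on B16-RII and 709.50 on B16-RIIL. B16-RII stood above the other 3 lines, 1.52-fold over B16 and 1.63-fold over B16-RIIL. The difference between B16-RII and B16 was 0.60 log2 units with the deposited values and -0.0031 after quantile normalization. In B16-RI and B16-RIIL it stayed below B16 under every scaling, by at most -0.39 and -0.34.

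Slc24a5 (mCG131623.1), a potassium-dependent sodium-calcium exchanger, was at 215.76 on B16, 172.33 on B16-RI, 238.26 on B16-RII and 161.90 on B16-RIIL. As with Slc45a2, B16-RII was highest and B16-RIIL lowest, 1.47-fold apart. B16-RI was 1.25-fold and B16-RIIL 1.33-fold below B16, and both lay below it under every scaling. In B16-RII the difference was 0.14 log2 units with the deposited values, and it was below 0 under the other 4 scalings.

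**Figure D2:**
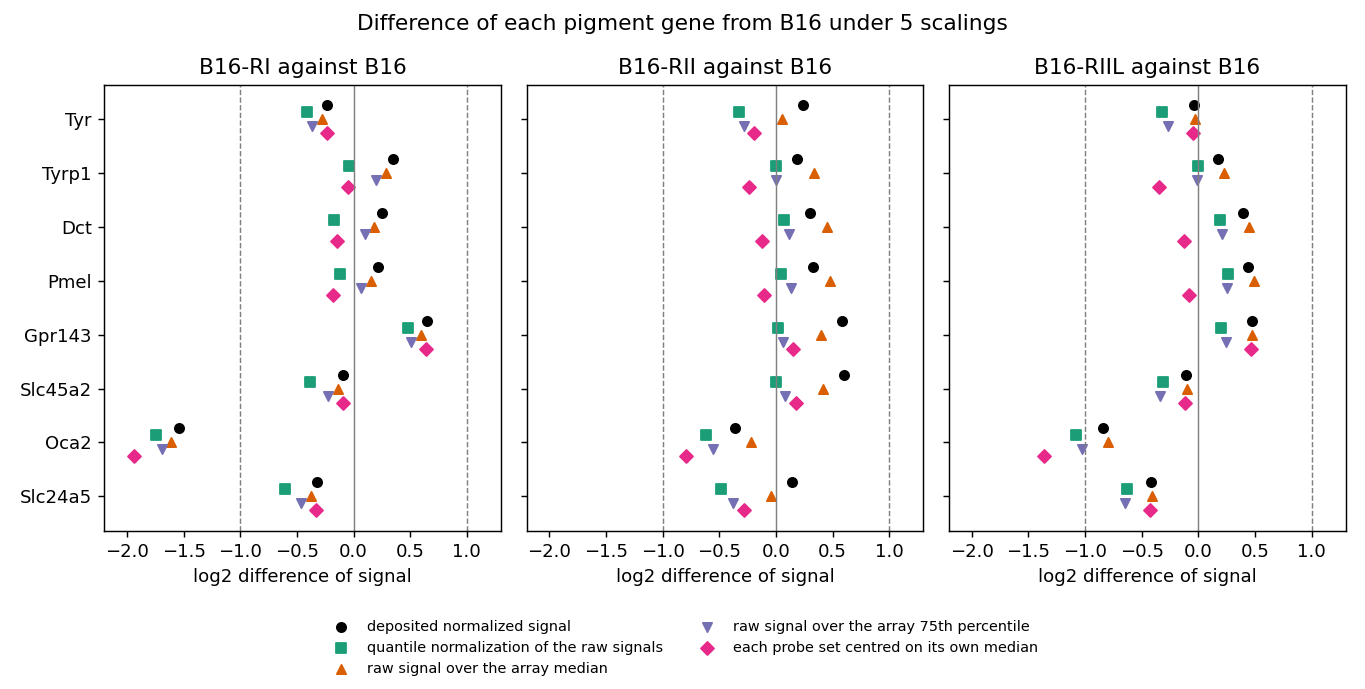
Log2 difference of signal from B16 (horizontal axis) of 8 pigment genes (rows) in B16-RI, B16-RII and B16-RIIL under the deposited normalization and 4 other scalings, 1 marker per scaling, with dashed lines at 2-fold. Oca2 in B16-RI lies past the lower line under all 5 scalings, and 12 of the 24 differences change sign with the scaling.

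Counted by a 2-fold limit with detection on the brighter array, 1 of the 8 genes, Oca2, was below B16 in B16-RI and 0 were above. Among probes detected on all arrays 1.57% were below and 3.21% above in that comparison. In B16-RII 0 of the 8 genes were above and 0 below, where 6.79% and 0.681% of such probes were. In B16-RIIL 0 were above and 0 below, against 5.89% and 1.5%. From B16-RI to B16-RII 1 gene, Oca2 again, was above, where 2.59% of probes were above and 0.457% below. From B16-RI to B16-RIIL 0 were above and 0 below, against 2.71% and 1.66%, and from B16-RII to B16-RIIL 0 were above and 0 below, against 0.767% and 3.24%. With 8 genes, these background shares correspond to less than 1 gene in each comparison and direction.

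The median difference of the 8 genes from B16 was 0.06 log2 units in B16-RI, 0.27 in B16-RII and 0.07 in B16-RIIL, below the medians of 0.21, 0.41 and 0.22 of the probes detected on all arrays. Over all probes the medians were 0.17 in B16-RI, 0.21 in B16-RII and 0.07 in B16-RIIL. Against these the 8 genes were lower in B16-RI, higher in B16-RII and about level in B16-RIIL. After quantile normalization, the medians of the probes detected on all arrays were at most 0.01 from 0. Those of the 8 genes were then -0.28, -0.0016 and -0.15. Of the 24 differences from B16, 3 lay above it under all 5 scalings, those of Gpr143, and 9 lay below it under all 5. The 9 were those of Oca2 in 3 lines and of Tyr, Slc45a2 and Slc24a5 in B16-RI and B16-RIIL. The other 12 changed sign or were at 0 under at least 1 scaling. The same shares over all probes were not computed, so these counts describe the 8 genes without a background.

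By the fixed rule, the genes most like Tyr over the 3 differences were Sh3bgrl3, Dnclc1 (Dynll1) and Capns1, at root mean square distances of 0.02, 0.03 and 0.03 log2 units among 7913 probes with a gene symbol detected on all arrays. For Tyrp1 they were D14Ertd226e (Tspan14), Rtcd1 (Rtca) and Ppap2a (Plpp1), each at 0.03, and for Dct Rnf141 and Arpc5 were the nearest, each at 0.02. For Oca2, which was added after its values were seen, the nearest was 1810015C04Rik (Retreg1) at 0.11, with differences of -1.49, -0.20 and -0.75 from B16. Likeness over 3 differences is a description only.

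Of the lineage genes, Mitf was at 6.37 on B16, 5.20 on B16-RI, 6.45 on B16-RII and 5.96 on B16-RIIL. Over the 5 scalings its difference from B16 lay between -0.69 and -0.29 log2 units in B16-RI and between -0.62 and -0.05 in B16-RIIL, and in B16-RII it changed sign, from -0.41 to 0.17. Pax3, another regulator of the pigment lineage, was at 20.93, 31.24, 31.87 and 41.29. Of 5 melanocyte lineage markers with a probe, 4 were detected on every array, and the signals of the list summed to 63.2 for B16, 80.55 on B16-RI, 113.62 on B16-RII and 139.86 on B16-RIIL. The sum is weighted by its brighter probes, and S100b was at 30.16, 38.65, 65.48 and 72.85. Of the 4 detected markers, S100b, Pax3 and Kit were higher and Mitf was lower in B16-RIIL than in B16 under all 5 scalings. Of 35 markers of macrophages, T and B cells, fibroblasts, endothelium, keratinocytes and lung epithelium, 8 were detected on B16, 2 on B16-RI, 6 on B16-RII and 9 on B16-RIIL. The summed normalized signal of these 35 markers lay between 95.19 and 119.26 per array, and the part of other cells in the values was not tested. The T and B cell list gave 63.35 to 88.13 of it, and there Cd79a and Cd2 were detected on all 4 arrays, while Csf1r, a macrophage marker, was detected on B16 alone.

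Genes of melanosome biogenesis and transport, such as the Rab27a, Mlph and Myo5a proteins that move the organelle, had a probe for 29 of 33. By the 2-fold limit 1 was above B16 and 0 were below in B16-RI, 0 and 0 in B16-RII, and 5 and 0 in B16-RIIL. Among all probes 4.95% were above and 4.55% below in B16-RI, 6.52% and 3.79% in B16-RII, and 6.43% and 4.25% in B16-RIIL. Of the 29 genes 25 were detected on all arrays. Among probes detected on all arrays 3.21% were above and 1.57% below in B16-RI, 6.79% and 0.681% in B16-RII, and 5.89% and 1.5% in B16-RIIL. In B16-RIIL Sytl2, a Rab27-binding protein, was 2.18-fold and Ostm1, a lysosomal membrane protein, 2.03-fold above B16. Both were past the limit with the deposited values and median scaling only, and over the 5 scalings they lay as low as 0.61 and 0.50 log2 units. Slc7a11, the cystine transporter that feeds the making of yellow pheomelanin, read 0.87 on B16 and 2.33 on B16-RII, both below detection. It read 2.40 on B16-RI and 5.75 on B16-RIIL, 2.76-fold and 6.61-fold above the undetected B16 signal. In B16-RI and B16-RIIL it was past the limit under all 5 scalings. In B16-RII it was 2.68-fold above B16 and not called, because it was undetected there. Bloc1s3 and Lyst, also undetected on B16, were each 2.21-fold above their B16 signal in B16-RIIL, past the limit under 3 and 4 of the 5 scalings. A ratio to an undetected signal is uncertain. Slc7a11, Bloc1s3 and Lyst are named because they complete the counts, after their values were seen. A second, dimmer probe of Ap3s1, detected on 1 array, was past the limit in B16-RI and was not counted.

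Of 13 regulators of pigment genes with a probe, 2 were above B16 in each passaged line and 0 below. In B16-RI, B16-RII and B16-RIIL 4.95%, 6.52% and 6.43% of all probes were above, and 4.55%, 3.79% and 4.25% below. Of those detected on all arrays 3.21%, 6.79% and 5.89% were above, and 1.57%, 0.681% and 1.5% below. Under quantile, 75th percentile and centred scaling the 2 in B16-RII became 1, 0 and 0, and the 2 in B16-RIIL became 1, while median scaling gave 4 in B16-RIIL. In B16-RI the 2 became 1 with quantile and centred scaling. The shares of probes past the limit were computed for the deposited values only. Tfap2a (Tcfap2a), a transcription factor of the neural crest, was 2.23-fold above B16 in B16-RI and 2.09-fold in B16-RII, past the limit under 3 and 2 of the 5 scalings. Kit, the receptor of stem cell factor, was at 5.16 on B16, 4.80 on B16-RI, 9.18 on B16-RII and 19.27 on B16-RIIL, 3.73-fold above B16 in the lung line and past the limit under all 5 scalings. Mc1r, the melanocortin receptor that sets the switch to eumelanin, was at 26.98, 24.27, 29.29 and 58.21, 2.16-fold above B16 in B16-RIIL but past the limit under 2 of the 5 scalings. Usf1 was 2.24-fold above B16 in B16-RII by its brighter probe and at 0.06 log2 units by the other, so its probes disagree. Kitl was below detection on B16, and its signal on B16-RI was 2.33-fold above that undetected signal. It is named after its value was seen.

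Of 14 genes of tyrosine supply and melanin detoxification, 1 was below B16 in B16-RI and in B16-RII, and 2 were above it in B16-RIIL. Of all probes 4.55% were below in B16-RI, 3.79% below in B16-RII and 6.43% above in B16-RIIL. Among probes detected on all arrays these shares were 1.57%, 0.681% and 5.89%. The gene below was Gch1 (Gch), which makes the first step toward tetrahydrobiopterin, the cofactor of phenylalanine hydroxylase. It was at 19.41 on B16, 5.77 on B16-RI, 9.40 on B16-RII and 18.41 on B16-RIIL, so B16-RI was 3.36-fold and B16-RII 2.06-fold below B16. The call in B16-RI held under all 5 scalings, and that in B16-RII was lost with median scaling, at -0.90 log2 units. Both Gch1 and Oca2 were lowest on B16-RI. Slc7a5, a carrier of large neutral amino acids, was 2.49-fold and the quinone reductase Nqo1 2.52-fold above B16 in B16-RIIL, past the limit under 4 and 5 of the 5 scalings. A second, dimmer probe of Mt1, detected on all arrays, was 1.42 log2 units above B16 in B16-RII and was not counted, while the brighter probe was 0.74 above.

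**Figure D3:**
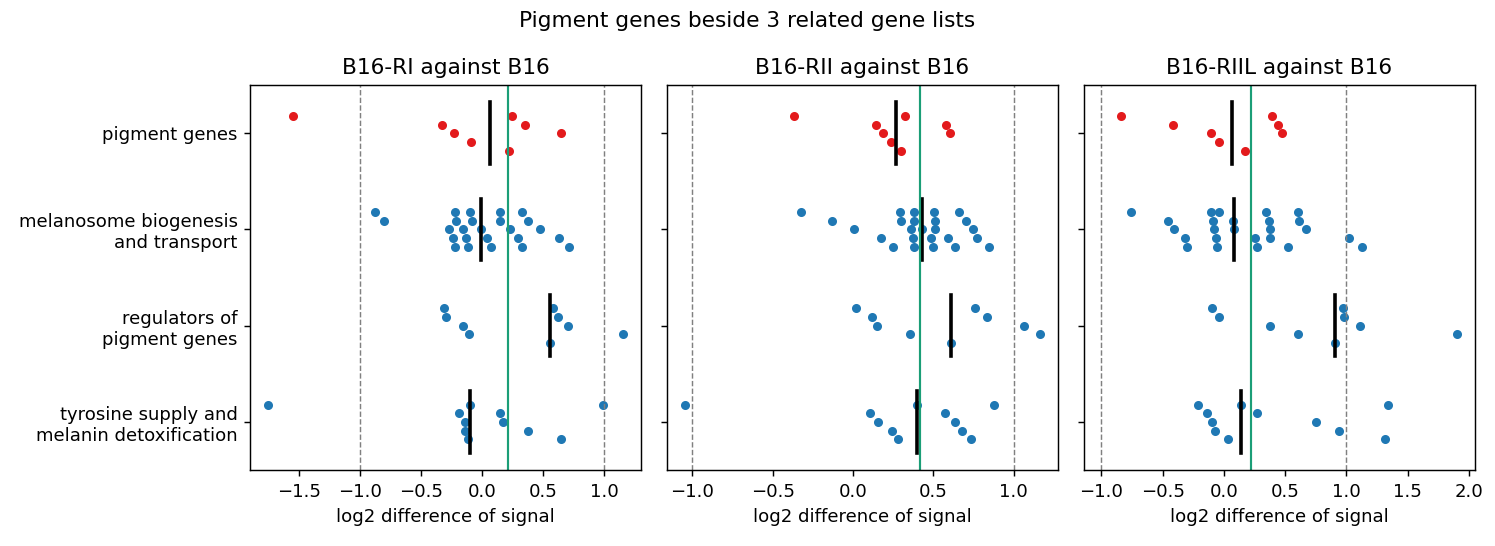
Log2 difference of signal from B16 (horizontal axis) in 3 passaged lines for the 8 pigment genes (red points) and for the genes of 3 related lists that were detected on all arrays (blue points), with the median of each list as a black bar, the median of all probes detected on all arrays as a green line and 2-fold limits as dashed lines. Oca2 and Gch1 lie past the lower limit in B16-RI, and Kit is farthest above B16 in B16-RIIL, at 1.90.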

How the data were processed

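RNA of 4 B16 lines was measured on Applied Biosystems arrays with 33012 probes, and 1 array per line was used. The authors deposited the raw intensity of the analyzer and a normalized intensity, which was found to be the raw signal divided by 1 of 2 constants per array and not quantile normalized, as the study's methods name. The S/N and flag that the authors deposited are analyzer scores, without a unit. The 16 columns of the 4 arrays that match a sample were used. Another 44 columns were not used, 20 of which hold values of second arrays that match no sample of the labels, and the rest ratios and log2 values.

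Log2 ratios were computed without a pseudocount. A probe was called above or below when it differed by at least 2-fold and was detected on the brighter array, and a gene was represented by its brightest probe. The dimmer side of an undetected probe was set to the higher of its signal and the array's lowest detected signal. In each printed case this was the probe's own signal, so the fold is the plain ratio of the signals and not a bound. Symbols were matched to RefSeq (GRCm38.p6) for 16186 of 17302 probes with a symbol. The array file names no genome build.

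Genes named were every measured member, and genes of the lists past the limit in at least 1 passaged line that were detected on all arrays or past it in all 3 lines. For Tyr, Tyrp1 and Dct the 3 genes nearest in pattern were named as well, of which 1 is not reported here. The members and lists were chosen with earlier results of these data known. Alternatives were quantile normalization, scaling of raw signals to the median or the 75th percentile, centring of each probe set, an S/N of 5, no filter, detection on both arrays, limits of 1.5-fold and 4-fold, and other uses of several probes. Counting rules were tested on simulated data. Python 3.11.15, numpy 2.4.6, pandas 2.3.3 and matplotlib 3.10.9 were used. With 1 array used per line, the array number sets the precision.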

Additional observations from a re-analysis of the deposited data

How the results depend on the processing

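No paired analysis was possible because the labels list 1 sample per line, and leaving out a replicate was likewise not possible. The columns of second arrays match no listed sample and were not used. Of 60 alternative counts of the 8 genes 49 stayed within 1.5 times the reported count. The S/N of 5, the other detection rules and the other uses of several probes could not move any of them. Each of the 8 genes had 1 probe, with an S/N of at least 10.29 on every array. Only the scalings and the size limits could change a count. In B16-RIIL against B16 the count of 0 became 1 with quantile normalization, 75th percentile scaling, centred probe sets and the 1.5-fold limit, each time Oca2 below B16. With the 1.5-fold limit the counts were also 2 in B16-RI, 1 in B16-RII, 2 from B16-RI to B16-RII, 1 from B16-RI to B16-RIIL and 1 from B16-RII to B16-RIIL, and with the 4-fold limit the counts of 1 in B16-RI and from B16-RI to B16-RII became 0, by construction. The medians of the 8 genes in B16-RI, B16-RII and B16-RIIL moved to -0.28, -0.0016 and -0.15 with quantile normalization, to -0.0784, 0.0305 and -0.14 with 75th percentile scaling, and to -0.16, -0.16 and -0.12 with centred sets. The cause of these moves was not tested. In 36 alternative counts of list genes called in either direction, 19 stayed within that limit. Melanosome biogenesis went from 1 to 2 in B16-RI with quantile, 75th percentile and centred scaling, and from 5 to 3, 1 and 2 in B16-RIIL. Regulators went from 2 to 1 in B16-RI with quantile and centred scaling, to 1, 0 and 0 in B16-RII with quantile, 75th percentile and centred scaling, and in B16-RIIL to 1 with each of these and to 4 with median scaling. Tyrosine supply went from 1 to 0 in B16-RII with median scaling and from 2 to 1 in B16-RIIL with centred sets. The shares of all probes past the limit under these other scalings were not computed. Oca2 in B16-RI and from B16-RI to B16-RII stayed past the 2-fold limit under every scaling run. The filters could not change these calls, because its S/N was above 5 on every array. Signal over background limits the dimmest genes, whose ratios to undetected signals are uncertain.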
